A study of Mus musculus with 6 samples.

Results

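The cytosolic ribosome of the mouse is built from ribosomal RNA and from the proteins of the genes named Rps (small subunit) and Rpl (large subunit). The 81 genes described here were taken from the authors' table by symbol alone: Rps or Rpl followed by a number and at most 1 further letter a, x or l, together with Rplp0, Rplp1, Rplp2 and Rpsa. They make up 81 of its 24315 rows, 32 for the small and 49 for the large subunit, and no expression value was used to choose them. The RNA came from the olfactory mucosa, that is the epithelium that holds the olfactory neurons and the glands and connective tissue under it, of wild-type C57BL/6 mice aged 11 postnatal days. In each of 3 mice the side of the closed nostril was compared with the side of the open nostril, with 1 library a side, which gives 3 closed against 3 open libraries with no unoperated mouse among them. Libraries are named here by side and mouse, closed 1 to 3 and open 1 to 3. When the nostril was closed, and for how long, is not given in the sources used here.

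Ribosomal proteins are made in nearly matched amounts, and their messages are among the most abundant of any cell. Many of these messages start with a C followed by a run of pyrimidines, the terminal oligopyrimidine start, through which growth signals acting by way of the mTOR kinase control their translation. In the olfactory mucosa, where neurons are replaced throughout life from basal stem cells, all cell types express them, so the set marks no single cell type.

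Expression was measured as FPKM, fragments per kilobase of transcript per 1000000 mapped fragments, with 24958172 to 43584803 reads per library as the authors recorded them. The RNA integrity number was 10 in all 6 libraries, 93.28 to 96.99% of reads were aligned, and 4.2 to 8.98% fell on abundant sequences. A row was tested where its mean over the 6 libraries was at least 1 FPKM, which 14788 rows met. As a reference, S100a5, a calcium-binding protein of olfactory neurons, stood at 239, 300.5 and 208 FPKM in the closed libraries and at 1997, 2102 and 1951 in the open ones, and fell on the closed side (log2 change -3.03, SE 0.19, limma adjusted p = 0.000888). The defining markers of mature olfactory neurons were present in every library: the 8 listed summed to between 2664 and 4818 FPKM per library, and Omp, the olfactory marker protein, to between 1414 and 2176.

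Of the 81 genes, 78 passed this level, 32 of the small and 46 of the large subunit. The 3 that did not are copies of other members: Rpl10l was listed at 0 in every library, Rpl3l lay between 0 and 0.39 FPKM, and Rpl39l between 0.247 and 1.16. Rpl10, Rpl3 and Rpl39, from which these copies are named, had means of 1186, 660 and 1009 FPKM. A mean of 100 FPKM or more was reached by 72 genes and one of 1000 or more by 27, and the median of the 78 means was 869. The highest was Rpl41, the smallest ribosomal protein, at 3133 FPKM, followed by Rps12 of the small subunit at 2059, Rplp1 of the stalk at 1930 and the zinc-binding small subunit protein Rps29 at 1536. FPKM is a level per length, so these values can be set side by side, within the limits of read sharing given further on.

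The start of the messages is shown because it is the sequence feature for which the family is known. RefSeq gave annotated starts on GRCm38.p6 for 57 of the 78 genes. In 35 of them (61.4%) a C followed by at least 4 pyrimidines lay within 10 bases of an annotated start, on the strand of the gene, against 35.8% of the 11194 tested genes with a start and 45.6% of the mitochondrial ribosomal proteins, whose messages serve another ribosome. The letters CTTTT or CTTTC lay there in 17 genes (29.8%), against 5.57% and 2.94%. The lines below give 10 bases before and 20 bases from the annotated start, 5′ to 3′, with the pyrimidine run in capitals. They belong to Rps6, the small subunit protein phosphorylated by S6 kinase, at chr4:86857348-86857377 on the minus strand, to Rpl38 at chr11:114668570-114668599 on the plus strand, to Rplp2 of the stalk at chr7:141447641-141447670 on the plus strand, to Rpl28 at chr7:4792955-4792984 on the plus strand and to Rps12 at chr10:23787190-23787219 on the minus strand. Rpl28 and Rps12 are shown because they bound the spread between libraries described next.
Rps6: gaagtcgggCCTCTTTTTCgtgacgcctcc
Rpl38: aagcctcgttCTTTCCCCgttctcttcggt
Rplp2: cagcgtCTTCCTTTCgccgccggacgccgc
Rpl28: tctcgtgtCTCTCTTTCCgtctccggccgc
Rps12: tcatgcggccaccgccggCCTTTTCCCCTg
A run near the start is a description of the annotation and not a measured start of transcription.

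No ribosomal protein gene passed the test between the sides. With limma on log2(FPKM + 1) and Benjamini-Hochberg adjustment over all rows, 0 of the 78 were called lower on the closed side (0.0406% of all rows tested were) and 0 were called higher (0.00676% of all rows). An unadjusted p under 0.05 was reached by 1 of the 78, Rps27, against 1.45% of all rows; with the mouse as a block 0 were called lower (0.027% of all rows) and 0 higher (0.00676%). The sides overlapped for every one of the 78, while 3.37% of all rows had sides that did not overlap. The median log2 change, closed minus open, was -0.07, beside -0.01 over all rows tested, and 65 of the 78 lay below 0, beside 54.0% of all rows. For 76 of the 78 the change was smaller than its own standard error, whose median was 0.24 for these genes and 0.14 over all rows. The median change was -0.07 in the small and -0.06 in the large subunit.

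That slight lean to the closed side being lower rested on single libraries. Without closed 3, 75 of the 78 lay above 0 and the median change was 0.16. Without open 2, 63 lay above 0 and the median was 0.05. Without closed 1, 76 lay below 0 and the median was -0.20; without closed 2 it was -0.12, and without open 3 it was -0.14.

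**Figure D1:**
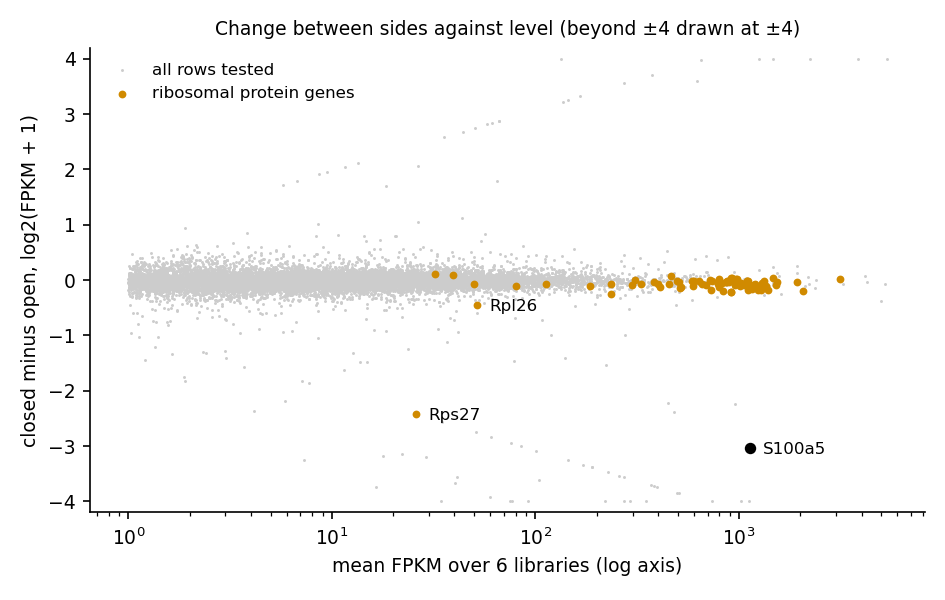
Log2 change, closed minus open, against the mean FPKM over the 6 libraries (log axis), for all 14788 rows tested (grey) and the 78 ribosomal protein genes (orange), with S100a5 in black for scale. Apart from Rps27 at -2.42 and Rpl26 at -0.45, the orange points lie in a narrow band that ends at 0.11.

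What did differ was the level of the whole family from library to library. The FPKM of the 81 genes summed to 80593 in closed 1, 69431 in closed 2 and 46064 in closed 3, and to 64006 in open 1, 79594 in open 2 and 58339 in open 3. The lowest sum was closed 3 and the highest closed 1, so the closed side held both ends of the range. The means were 65363 ± 17621 on the closed side and 67313 ± 11007 on the open side (SD, n = 3 each), a ratio of 0.971, so the difference between sides was far smaller than the spread within either. The ratio was 1.11 without closed 3 and 0.858 without closed 1. As a share of all FPKM in the library, the family took 12.9, 12.3 and 9.12% on the closed side and 11.3, 13.7 and 10.8% on the open side.

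The genes moved between libraries together. Each gene's log2 value was set against its own mean over the 6 libraries. The median of these deviations over the 78 genes was 0.29, 0.10 and -0.46 in closed 1, 2 and 3, and -0.01, 0.25 and -0.15 in open 1, 2 and 3. Over all rows tested the same median stayed between -0.04 and 0.03. In closed 3 all 78 lay below their own mean, and it was the lowest library for 75 of the 78, while it was the lowest for 21.2% of all rows. The exceptions were Rpl26, lowest in closed 1, and 2 genes lowest in open 3, among them Rps4l. The highest library was closed 1 for 42 genes, open 2 for 22, closed 2 for 12 and open 1 for 2. Within closed 3, the deviations of the middle 80% of the genes ran from -0.66 to -0.35, so the shift was shared by nearly all and differed in size.

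**Figure D2:**
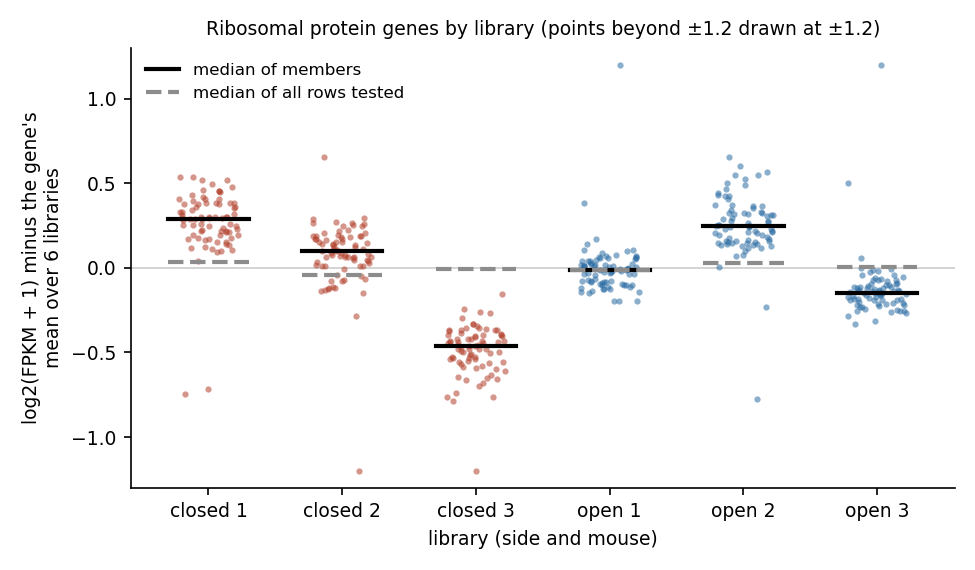
Deviation of each of the 78 genes from its own mean over the 6 libraries, in log2(FPKM + 1), by library, with the closed side in red and the open side in blue. The black bar is the median of the genes, at -0.46 in closed 3 and 0.29 in closed 1, and the dashed grey bar is the median of all rows tested, which stays between -0.04 and 0.03.

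Because both sides came from the same mouse, the difference could be taken within each. In mouse 1 the closed side was above the open side for 72 of the 78 genes, with a median difference of 0.29 on the log2 scale (0.05 over all rows). In mouse 2 it was below for 60 of them, with a median of -0.14 (-0.07 over all rows). In mouse 3 it was below for 76, with a median of -0.32 (-0.01 over all rows). The 3 mice thus did not share a direction. The ratio of the summed FPKM, closed over open, was 1.26, 0.872 and 0.790 in mice 1, 2 and 3. Only Rps27 had the lower value on the side of the closed nostril in 3 of 3 mice, 1 of 78 genes beside 9.18% of all rows, and 0 genes were higher in 3 of 3, beside 7.41% of all rows.

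**Figure D3:**
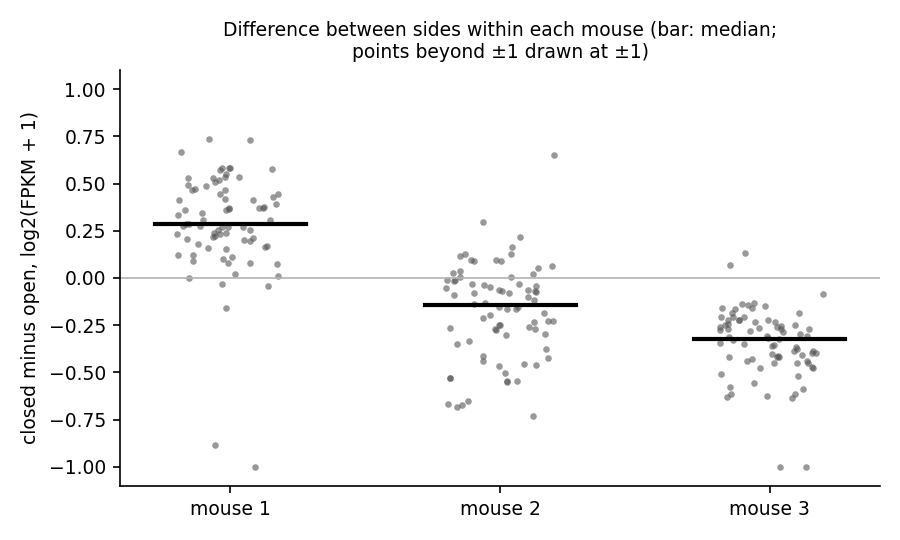
Closed minus open within each mouse, in log2(FPKM + 1), for the 78 genes, with the median as a bar. The medians are 0.29, -0.14 and -0.32 in mice 1, 2 and 3, so the direction differs between mouse 1 and the others.

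The spread over libraries was wider than for other genes and was wider among the closed libraries than among the open ones. The median range over the 6 libraries was 0.79 on the log2 scale, against 0.44 for all rows tested. Within the 3 closed libraries the family's median range was 0.77 and within the 3 open ones 0.42. The range by side is not given here for all rows. Of all rows, 15.8, 26.8 and 21.2% were lowest in closed 1 to 3, and 13.2, 11.2 and 11.8% in open 1 to 3. Leaving Rps27 aside, the widest range was that of Rps12, at 1.42. Its FPKM was 2832, 1848 and 1147 in closed 1 to 3 and 1706, 3066 and 1757 in open 1 to 3. Open 2 and closed 1 were high and closed 3 low, and the sides overlapped (log2 change -0.20, SE 0.39). The narrowest was Rpl28, a large subunit protein, at 0.35. Its FPKM was 1186, 1178 and 928 on the closed side and 1179, 1158 and 983 on the open side. Here too closed 3 was lowest, but the highest library stood only 1.28-fold above it, against 2.67-fold for Rps12. Over the 76 genes with a coding length other than Rps27, the range was slightly wider for shorter reading frames (Spearman rho -0.33), a relation across genes that share the same 6 libraries.

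The members at known positions of the ribosome followed the family. Rplp0 anchors the stalk and Rplp1 and Rplp2 form it, the part of the large subunit that recruits elongation factors. Rplp0 measured 1092, 1061 and 755 FPKM on the closed side and 964, 1118 and 873 on the open side. Rplp1 measured 2328, 2155 and 1312 against 1952, 2250 and 1585. Rplp2 measured 1079, 1153 and 724 against 1000.4, 1057 and 808. All 3 were lowest in closed 3, and their log2 changes were -0.03, -0.03 and 0.03, each with an SE between 0.22 and 0.30. Rpl5 and Rpl11 join the 5S ribosomal RNA, and free of the ribosome they bind Mdm2, the ubiquitin ligase of p53. Rpl5 stood at 510, 406 and 269 FPKM closed and at 368, 489 and 363 open. Rpl11 stood at 1285, 1181 and 818 closed and at 1067, 1238 and 986 open. For both, closed 1 was the highest library and closed 3 the lowest, and the changes were -0.08 and -0.02.

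In the small subunit, Rps6 measured 677, 639 and 408 FPKM on the closed side and 537, 748 and 542 on the open side, with a change of -0.10 (SE 0.24). Rps3, which lies at the entry of the mRNA channel, measured 460, 428 and 259 against 356, 456 and 341, with a change of -0.04. Rpsa, also known as the laminin receptor precursor, measured 705, 655 and 406 against 578, 673 and 490, with a change of -0.01. None of the 3 separated the sides, and closed 3 was the lowest library for each. Rps27a, made as a fusion with ubiquitin, had one of the wider swings, with 1448, 1124 and 615 FPKM closed and 965, 1553 and 954 open.

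Among 12 genes mutated in Diamond-Blackfan anemia, a human disease of red cell formation, 0 were called in either direction and 0 reached an unadjusted p under 0.05, beside 1.45% of all rows. All 12 changes lay below 0 with a median of -0.08, beside 65 of the 78 genes of the family and 54.0% of all rows below 0, a lean that turned for the family without closed 3. Rps19, the gene mutated most often, stood at 1005, 802 and 444 FPKM closed and at 694, 899 and 594 open. Rps24 stood at 1448, 1209 and 652 closed and at 1003, 1622 and 998 open. Rps26 stood at 953, 1020 and 628 closed and at 897, 956 and 752 open. Rpl35a, of the large subunit, stood at 1063, 936 and 566 closed and at 838, 1191 and 876 open. For all 4 the lowest value was in closed 3 and both sides overlapped, with changes of -0.02, -0.17, -0.03 and -0.21. The 7 listed proteins at the exit of the peptide tunnel had a median change of -0.11. Of these, 0 were called in limma (0.0406% of all rows were lower and 0.00676% higher) and 0 reached an unadjusted p under 0.05 (1.45% of all rows). Rpl38, whose mutation in mice disturbs the patterning of the axial skeleton, stood at 1744, 1336 and 875 FPKM closed and at 1312, 1638 and 1196 open, with a change of -0.11.

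Among the genes with the lowest p in each direction, Rps27, Rpl26 and Rps27l leaned down, and Rpl30 and Rps4l leaned up. Rpl26 measured 29.1, 76.7 and 31.5 FPKM closed and 54.7, 48.5 and 68.9 open, with a change of -0.45 (SE 0.34, unadjusted p = 0.219, limma adjusted p = 0.99999). Its change was -0.20 without closed 1 and -0.89 without closed 2 (adjusted p = 0.584). It did not follow the pattern of the family: closed 2 was its highest library. Rps27l had a change of -0.24 (SE 0.28). Upward, the changes were 0.11 for Rpl30 and 0.09 for Rps4l, each below its standard error and each on the other side of 0 when 1 library was left out, as was Rps27l without closed 3.

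Rps27 stood apart, and reads from its reading frame cannot be told from those of a second gene. This zinc-binding protein of the small subunit measured 6.79, 4.22 and 3.44 FPKM on the closed side and 99.7, 6.62 and 34.8 on the open side. Open 1 and open 3 were high, while open 2 lay among the closed libraries. The log2 change was -2.42 (SE 0.78), with an unadjusted p of 0.0145 and a limma adjusted p of 0.99999. It was -3.41 without open 2 (adjusted p = 0.0742) and -1.55 without open 1 (adjusted p = 0.9998). After scaling of the libraries to equal ribosomal protein sums, Rps27 was called lower (adjusted p = 0.0256), as the only 1 of the 78, beside 0.182% of all rows, and 0 genes were called higher, beside 0.0135%. With the mouse as a block in that scaling the count was again 1 lower, beside 0.532% of all rows, and 0 higher, beside 0.249%. That scaling divides each library by the summed level of these same genes, so its call on Rps27 is no independent support. The log2 change of Rps27 hardly moved, at -2.38 after the scaling. Without the scaling, its differences within mice 1 to 3 were -3.69, -0.55 and -3.01. Rps27rt, an Rps27 retrocopy, had 2818, 2052 and 1331 FPKM closed and 1793, 2741 and 1931 open, which is the pattern of the family, with closed 3 lowest and closed 1 highest. Rps27 was listed at 0.206 to 5.56% of Rps27rt. The reading frames of the 2 genes, on chromosomes 3 and 9, are identical over all 255 bases in the GENCODE vM21 transcripts on GRCm38. In the whole Rps27 transcript, 98.6% of the windows of 51 bases (the read length) occur in another gene, with 9 other genes involved in all. The frames are printed because a reader can see in them that no coding read tells the genes apart. The capitals mark the first 51 bases, a single read.
Rps27: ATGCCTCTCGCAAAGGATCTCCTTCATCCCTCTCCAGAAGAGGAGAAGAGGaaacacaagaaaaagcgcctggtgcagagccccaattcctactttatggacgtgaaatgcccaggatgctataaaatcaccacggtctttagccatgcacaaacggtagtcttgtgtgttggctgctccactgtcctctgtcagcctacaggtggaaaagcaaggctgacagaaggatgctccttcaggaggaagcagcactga
Rps27rt: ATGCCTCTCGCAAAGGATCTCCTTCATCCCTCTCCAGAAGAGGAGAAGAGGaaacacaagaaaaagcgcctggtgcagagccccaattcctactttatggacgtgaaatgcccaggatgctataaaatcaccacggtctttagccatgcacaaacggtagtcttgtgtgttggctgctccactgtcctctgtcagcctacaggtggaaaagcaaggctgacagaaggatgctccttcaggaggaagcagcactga
How the authors' counting assigned such reads is not given in the sources used here, so the values of both genes are uncertain.

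**Figure D4:**
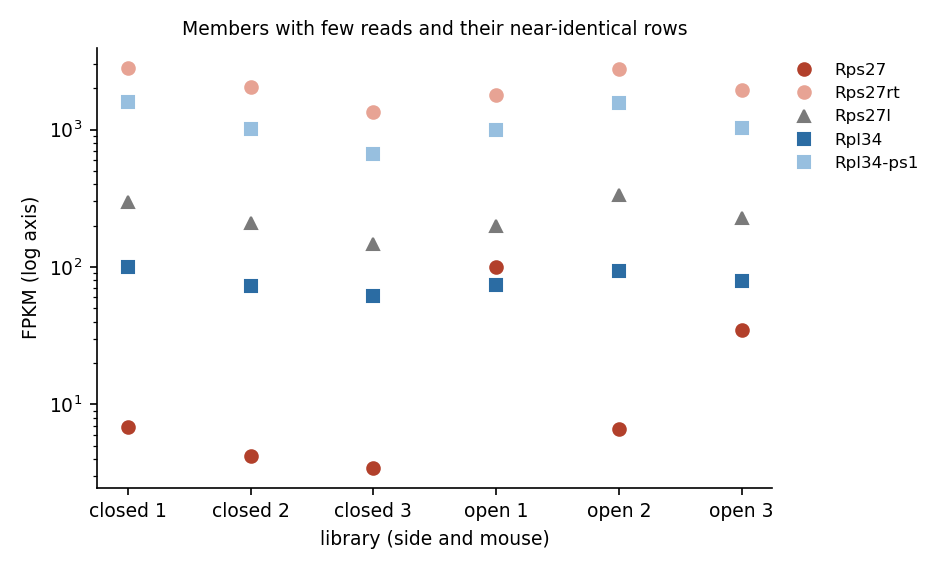
FPKM (log axis) of Rps27, Rps27rt, Rps27l, Rpl34 and Rpl34-ps1 in each of the 6 libraries. Rps27rt, Rps27l and Rpl34-ps1 share the low value in closed 3, while Rps27 ranges from 3.44 in closed 3 to 99.7 in open 1.

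Sharing of sequence was the rule in the family. Of the 78 genes, 77 shared at least 1 window of 51 bases with another annotated gene, and the median gene shared 52.4% of its windows. The median was 2.82% for the 77 mitochondrial ribosomal proteins and 2.26% for the 72 tested subunits of the respiratory chain. Any other annotated gene on either strand counted, so the gene that shares a window need not be a copy. Rpl35 shared 94.9% of its windows, and the gene that shared the most of them was Wdr38. The 42 genes with at least 50% of windows shared had a median deviation of -0.48 in closed 3 and 0.29 in closed 1, and the other 36 had -0.44 and 0.27. These 36 genes still shared some sequence, and the part of shared reads in the library pattern was not tested.

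The 6 genes with means between 1 and 100 FPKM were Rps27, Rpl30, Rps4l, Rps15a, Rpl26 and Rpl34. Rpl34 was listed at 6.04 to 9.18% of the level of Rpl34-ps1 and Rpl26 at 1.71 to 5.53% of the level of Gm15772, the gene with which it shares most of its windows; that second pair was chosen after its values were seen. Gm15772 measured 1697, 1418 and 946 FPKM closed and 1307, 1768 and 1244 open, again lowest in closed 3. Rps4l stood at 3.42 to 5.62% of Rps4x. For 3 further genes the member was the higher of the pair: Rpl31 lay at 243 to 308% of Rpl31-ps12, Rpl37 at 497 to 608% of Rpl37rt and Rpl14 at 373 to 470% of Rpl14-ps1. Other pairs had comparable levels: Rpl22l1 at 65.3 to 93.8% of Rpl22 and Rpl36al at 61.3 to 70.6% of Rpl36a. Rpl7l1, by contrast, lay at 2.77 to 3.49% of Rpl7.

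Ribosomal proteins whose symbols fall outside the rule had the same order of libraries at both ends. Of 6 tested, 0 were called (0.0406% of all rows were lower and 0.00676% higher) and 0 reached an unadjusted p under 0.05 (1.45% of all rows). Their median deviation was -0.36 in closed 3 and 0.18 in closed 1. Gnb2l1, the scaffold protein Rack1 of the small subunit, measured 710, 660 and 475 FPKM closed and 614, 689 and 530 open. Fau, a fusion that carries a small subunit protein, measured 1309, 1185 and 820 closed and 1109, 1174 and 887 open. Closed 3 was lowest for both. By the lowest p in each direction, Rpl22l1 had a log2 change of -0.17 and Fau of 0.05.

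Other genes of translation, and a further complex, were compared over the libraries. The 77 mitochondrial ribosomal proteins had median deviations of 0.15 in closed 1, 0.03 in open 2 and -0.23 in closed 3. The 37 translation factors had 0.01, 0.03 and -0.16, and 39 genes of ribosome assembly 0.00, 0.03 and -0.09. These last lists did not share the family's order of libraries: both were highest in closed 2, at 0.13 each, and ribosome assembly had -0.09 in open 3 as well as in closed 3. The mitochondrial ribosomal proteins shared it only in part, since open 2 lay below closed 2 (0.09) and open 1 (0.06). The 72 nuclear subunits of the respiratory chain, another large complex of short and abundant messages, had 0.16 in closed 1, 0.09 in open 2 and -0.29 in closed 3. The 11 non-coding hosts of small nucleolar RNAs, several of which also carry pyrimidine starts, had 0.44, 0.23 and -0.45. In none of these 5 lists was a gene called, beside 0.0406% of all rows tested called lower and 0.00676% called higher. An unadjusted p under 0.05 was reached by 1 gene in all, beside 1.45% of all rows. That gene was Cox7a1 of the respiratory chain, at 19.7, 15.6 and 11.9 FPKM closed and 20.6, 26.2 and 19.96 open (log2 change -0.49, SE 0.18, unadjusted p = 0.0283, limma adjusted p = 0.99999). Apart from Cox7a1, the genes with the lowest p in each direction were Mrpl42 (-0.18) and Mrpl27 (0.19) of the mitochondrial ribosome, Etf1 (-0.10) and Eif6 (0.13) of the translation factors, Pes1 (-0.06) and Rrp9 (0.18) of ribosome assembly, Snhg12 (-0.12) and Snhg9 (0.79) of the host genes and Atp5s (0.15) of the respiratory chain, all as log2 changes. Deviations in closed 3 were closest to those of the ribosomal proteins in the host genes, but the difference between any of these lists and the ribosomal proteins was not tested.

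Transcript length moved with the same libraries. The principal transcript had a median length of 775 bases in the 77 genes of the family with a length and of 2900 bases over all 13702 tested rows with one. In closed 3, rows outside the family had a median deviation of -0.34 at up to 500 bases, -0.20 between 750 and 1000, -0.07 between 1500 and 2500 and 0.10 above 4000. In closed 1 the corresponding values were 0.27, 0.12, 0.03 and -0.01. The ribosomal protein genes did not follow this slope: in closed 3 their medians were -0.50 in the 13 genes up to 500 bases, -0.44 in the 19 between 750 and 1000 and -0.50 in the 7 between 1500 and 2500. After the length trend of each library, fitted on the rows outside the family, was removed, the family's medians were 0.15, 0.04 and -0.22 in closed 1 to 3 and -0.06, 0.17 and -0.05 in open 1 to 3. Closed 3 was still the lowest, and open 2 and closed 1 were still the highest. The annotated length need not be that of the transcript the authors measured.

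**Figure D5:**
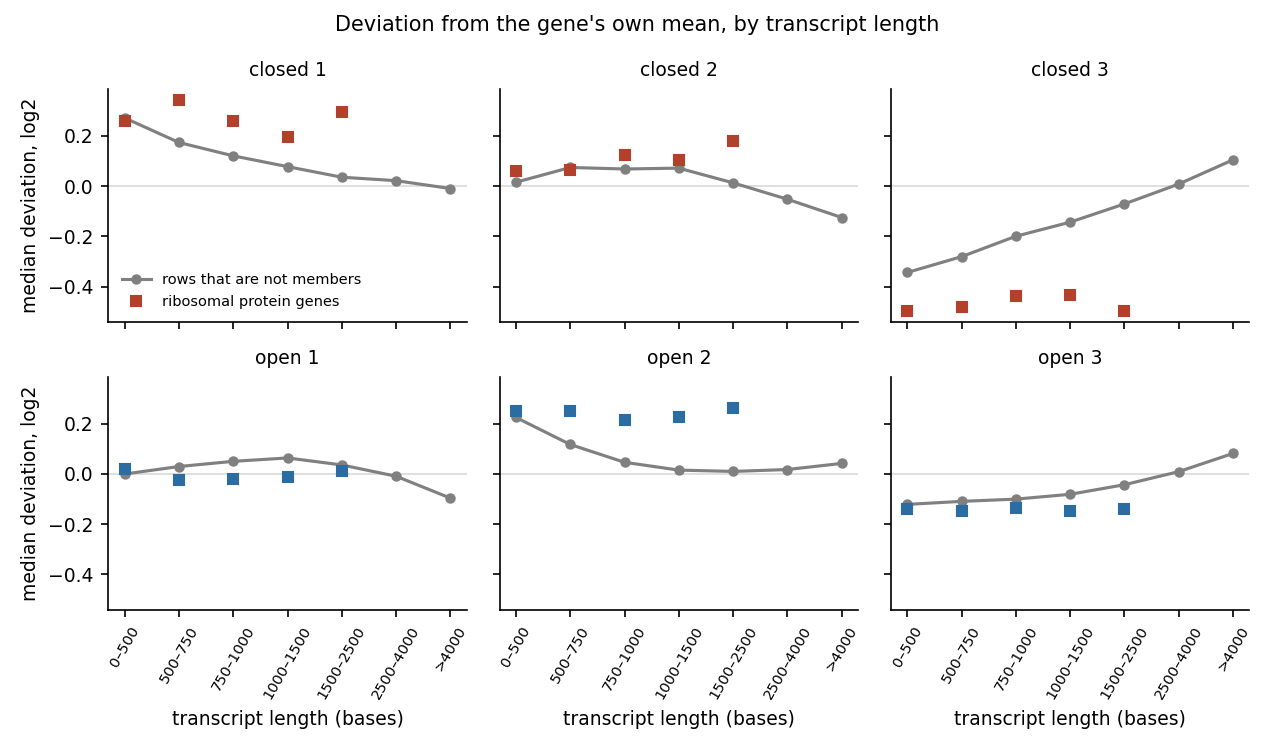
Median deviation from the gene's own mean, in log2, by class of transcript length and library, for rows outside the family (grey line) and for ribosomal protein genes (squares, classes with at least 5 genes). In closed 3 the grey line climbs from -0.34 to 0.10 with length while the squares stay between -0.50 and -0.43.

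Other measures of the libraries differed as well, and not all of them followed the family. Closed 1 and open 2, where it was high, had 7.9 and 8.98% of reads on abundant sequences and 93.28 and 94.38% aligned. In the other 4 libraries these were 4.2 to 7.39% and 96.47 to 96.99%. The fraction on abundant sequences was 4.2% in closed 2, where the family lay above its mean. It was higher, at 6.56% in closed 3 and 7.39% in open 3, where the family lay below. The 28S over 18S ratio was 1.6 in closed 1, 1.8 in closed 2, 1.9 in closed 3 and 1.7 in every open library. Small RNA rows took 11.3% of all FPKM in closed 1 and 3.47 to 5.27% elsewhere, with 3.88% in open 2 and 3.47% in closed 3. Without these rows the family's share was 14.5, 12.8 and 9.45% closed and 11.8, 14.3 and 11.4% open.

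Markers of cell types moved as well, in directions that differed between the lists, and not every list is given here. The 8 markers of mature olfactory neurons, all tested, had a median deviation of 0.56 in closed 3 and -0.48 in open 2, opposite in sign to the ribosomal proteins, and of 0.03 in closed 1. Their summed level was 3764 to 4818 FPKM on the closed side and 2664 to 4056 on the open side, and none was at 0. The 5 red cell markers had 0.77 in closed 1, -0.02 in open 2 and -0.70 in closed 3, with sums of 251 to 702 closed and 371 to 419 open. Hba-a2, alone among the 5, was higher in closed 3 than in closed 1. It measured 0.032 FPKM in closed 1 and 20.8 in closed 3, its highest library, and was near 0 in 3 libraries. The 5 neutrophil markers had medians of 0.71 in closed 1, 0.39 in open 2 and -0.60 in closed 3. Their sums were 436 to 993 closed and 507 to 933 open. Ltf, alone among the 5, was lower in closed 1 than in closed 3. Ltf measured 38.9 FPKM in closed 1, its lowest library, 77.5 in closed 3 and 228 in open 2. Other lists had other orders of libraries. In closed 1 and closed 3, the median deviations were -0.59 and 0.29 for endothelium and -0.34 and -0.05 for horizontal basal cells. They were 0.07 and 0.02 for immature neurons and 0.05 and -0.25 for macrophages. The part of cell composition, RNA handling or library preparation in the family's shift was not tested. In RNA from whole tissue, fewer cells of a type and less RNA per cell cannot be told apart.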

How the data were processed

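Total RNA of the mucosa was prepared with TruSeq after column extraction, according to the labels. The authors deposited 1 FPKM value per gene and library. The submitters' processing notes name Cufflinks and mm9; aligner, annotation, strand and any scaling between libraries were not given in the sources used here. Another sheet, also deposited by the authors, holds each library's read count (single reads or pairs is not stated there), the fraction of reads aligned and the fraction on abundant sequences (both printed as percent), RNA integrity and coverage uniformity as a score each, and the 28S over 18S ratio. It also says which libraries share a mouse, the source of the pairing here. Over rows, the deviations of the 2 libraries of a mouse correlated at 0.149, 0.0759 and 0.213 in mice 1 to 3. Closed and open libraries of different mice correlated at -0.169 to 0.00815.

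Rows whose mean reached 1 FPKM were tested as log2(FPKM + 1) with limma 3.58.1 in R 4.3.3 (variance trend, no block, two-sided, Benjamini-Hochberg threshold 0.05); the script was first tested on simulated data. The pseudocount of 1 understates changes of low genes, and the depth per gene is unknown because FPKM holds no counts. The genes named are those with the lowest p of each sign, the highest level, the widest and narrowest range, paralogs, and a preset group of well-known members; some genes this rule names are not reported here. Members and lists were chosen with earlier results of these data known. Alternatives were other pseudocounts, floors and scalings, a mouse block, a robust variance, a removed length trend (loess, span 0.5) and each library left out. Transcripts came from GENCODE vM21 and starts from RefSeq, matched by symbol; their build is not mm9, so they served for sequence and length only. In 27 rows the deposited symbol was a date. The libraries of a side come from separate mice.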

Additional observations from a re-analysis of the deposited data

How the results depend on the processing

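Over 20 alternatives, 0 ribosomal protein genes were called higher. The count called lower was 0 in 18 of them, including the replicate block and each library left out, and 1 (Rps27) after scaling to the ribosomal protein sum, without the block (adjusted p = 0.0256) and with the replicate block (7.34e-20). That scaling uses the sum of these same genes, so its call on Rps27 is no independent support, and the cause was not tested. In limma each variance is moved towards a trend over all rows, so 7.34e-20 does not measure the spread of Rps27 between mice. Without the scaling, its differences within mice 1 to 3 were -3.69, -0.55 and -3.01, and the block gave a limma adjusted p of 0.99999. The scaling with the block, like the removed length trend, was chosen after seeing the data. The median change ran from -0.20 to 0.16 and the ratio of sums from 0.858 to 1.11 when 1 library was left out. The median was 0.0030 after quantile normalization or scaling to the ribosomal protein sum, where 40 of 78 genes lay above 0; with small RNA rows left out, 26 of 79 did. The median over all rows stood at 0.05 after scaling to the ribosomal protein sum.

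Over all rows, 6 were called lower and 1 higher. These became 3 lower with no floor, 27 lower and 2 higher scaled to the ribosomal protein sum, 79 and 37 with that scaling and the block, 3 and 0 with the length trend removed and the block, 0 higher with that trend removed or small RNA rows left out, and 3 to 10 lower and 1 to 2 higher leaving out 1 library.

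Leaving out 1 library moved the log2 change of Rps27l between -0.50 and 0.012, Rpl30 between -0.0092 and 0.32, Rps4l between -0.030 and 0.30, Rpl22l1 between -0.38 and 0.17, Fau between -0.090 and 0.25, Snhg12 between -0.26 and 0.075 and Snhg9 between -0.084 and 1.39. With no change of sign, it moved Rpl26 between -0.89 and -0.20, Eif6 between 0.018 and 0.25, Etf1 between -0.17 and -0.045, Mrpl42 between -0.27 and -0.091, Pes1 between -0.094 and -0.035, Rrp9 between 0.11 and 0.24, Cox7a1 between -0.65 and -0.32 and Atp5s between 0.076 and 0.19. Pes1 turned from -0.06 to 0.0071 after scaling to the ribosomal protein sum, with or without the block. Snhg9 was called higher under that scaling with the block (adjusted p = 0.0124), and Snhg9 rested on closed 1. The replicate block alone changed no call of a named gene. With 3 libraries a side and a median standard error of 0.24, small shifts of the family were not detectable.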
